A study of Mus musculus with 6 samples.

Results

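The cytokines of the gp130 family, their receptor chains and the shared signalling chain gp130 were followed as 10 genes in bulk RNA of antral gastric mucosa from mice without Muc6 and from wild-type mice. The genes were chosen by name as ligands and receptors of the interleukin 6 and interleukin 11 family. They are Il6, Il11, Lif, Osm and Clcf1 among the cytokines, and Il6ra, Il11ra1, Lifr, Osmr and Il6st among the receptors. All 10 had a row among the 34866 genes of the count table, and 9 passed the filter on low counts, which kept 14017 genes. Osm did not pass it. There were 3 libraries with the genotype Muc6 -/-, called KO 1 to KO 3, and 3 with the genotype Muc6 +/+, called WT 1 to WT 3. Muc6 encodes a mucin that antral gland cells secrete. No age, sex, strain or further treatment is given in the labels, and nothing states that the libraries of a genotype came from separate animals. The library kit selected polyadenylated RNA and marked the strand. The stated purpose was to study a link between Muc6 and stomach tumours.

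Each cytokine listed above binds a receptor complex that contains gp130, the product of Il6st. Interleukin 6 and interleukin 11 first bind their own chains, encoded by Il6ra and Il11ra1, and then pair gp130 with gp130. Leukemia inhibitory factor and cardiotrophin-like cytokine signal through gp130 paired with the LIF receptor, and oncostatin M through gp130 paired with its own receptor. JAK kinases bound to these chains then activate STAT3 and, through SHP2, the ERK pathway. In the mouse stomach the branch through interleukin 11 and STAT3 is known from gp130 mutant mice that develop antral tumours.

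The promoters of Il11, Il6, Lif and Osmr are shown because these 4 members stood at higher levels in the KO libraries and each holds 1 match to the AP-1 motif TGANTCA. They are RefSeq sequences on mm10 (GRCm38.p6), 250 bases before to 50 after a transcription start, read on the gene's own strand. Il11 is the minus-strand window chr7:4778092-4778391, Il6 the plus-strand window chr5:30012864-30013163, Lif the plus-strand window chr11:4257318-4257617 and Osmr the minus-strand window chr15:6874264-6874563. Capitals mark the match to TGANTCA.
Il11: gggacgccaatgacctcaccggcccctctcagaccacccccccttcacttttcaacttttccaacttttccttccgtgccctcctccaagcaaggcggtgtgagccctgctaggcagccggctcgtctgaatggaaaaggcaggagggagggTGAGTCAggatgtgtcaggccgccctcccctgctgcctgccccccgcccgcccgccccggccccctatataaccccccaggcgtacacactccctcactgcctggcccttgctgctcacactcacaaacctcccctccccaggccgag
Il6: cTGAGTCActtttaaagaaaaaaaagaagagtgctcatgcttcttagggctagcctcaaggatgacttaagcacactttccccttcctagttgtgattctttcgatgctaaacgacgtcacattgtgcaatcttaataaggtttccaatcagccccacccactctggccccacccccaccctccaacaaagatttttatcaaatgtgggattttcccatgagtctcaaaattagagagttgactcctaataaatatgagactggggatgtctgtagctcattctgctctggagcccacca
Lif: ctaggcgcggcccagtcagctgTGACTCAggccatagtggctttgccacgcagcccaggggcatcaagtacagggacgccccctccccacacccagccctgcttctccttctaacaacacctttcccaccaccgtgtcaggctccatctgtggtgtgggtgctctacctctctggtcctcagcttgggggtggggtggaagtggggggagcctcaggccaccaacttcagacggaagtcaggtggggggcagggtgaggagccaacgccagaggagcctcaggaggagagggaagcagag
Osmr: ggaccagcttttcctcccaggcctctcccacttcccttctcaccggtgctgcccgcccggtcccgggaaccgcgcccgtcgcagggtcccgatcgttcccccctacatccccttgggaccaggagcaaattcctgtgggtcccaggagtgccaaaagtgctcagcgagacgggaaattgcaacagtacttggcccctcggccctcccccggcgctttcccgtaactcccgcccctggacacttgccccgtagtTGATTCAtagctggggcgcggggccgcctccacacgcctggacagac
The AP-1 match starts 98 bases before the start site in Il11, 249 before it in Il6, 228 before it in Lif and 3 after it in Osmr. Both strands were searched, no matches overlapped, and the STAT motif TTCNNNGAA was searched as well. Of 32851 promoter windows of this length, 7.81% held TGANTCA and 8.30% held TTCNNNGAA. Promoters were matched for 8 of the 10 members, and Osm and Clcf1 were not among them. A second listed start of Il11 and the windows of Il6ra, Il11ra1, Lifr and Il6st did not hold TGANTCA, and no member window held the STAT motif. A match of letters is a description of the window, not a binding site.

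Total estimated counts were 19839799 to 21354029 per library, so that 1 count was worth 0.0416 to 0.0580 CPM. CPM is counts per 1e6 of the library size after TMM scaling, which corrects for differences in RNA make-up. Muc6 itself held 0.0425, 0 and 0 CPM in KO 1, KO 2 and KO 3, against 396, 403 and 510 CPM in WT 1, WT 2 and WT 3. The antral markers Gkn1, Gkn2, Tff1, Tff2, Muc5ac, Pdx1 and Gast were present in all 6 libraries, but at different levels. With Muc6 the 8 antral markers summed to 50093 to 64044 CPM in KO and 163775 to 190037 CPM in WT libraries. By edgeR at a false discovery rate of 0.05, 2 of them were higher and 6 lower in KO, where 38.4% of all tested genes were called. The Y-linked gene Ddx3y was at 39.3, 41.1 and 41.1 CPM in the KO libraries and at 0.326, 0.112 and 0.0580 CPM in the WT libraries, so sex coincided with genotype and the 2 cannot be told apart. KO 1 and WT 1 stood apart from the other libraries of their genotype on the second principal component (18.2% of variance). Their summed smooth muscle markers were 66.6 CPM in KO 1 and 191 CPM in WT 1, against 627 to 854 CPM in the other KO libraries and 1383 to 2892 CPM in the other WT libraries. In bulk tissue, fewer cells of a type and less RNA per cell cannot be told apart.

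The contrast of KO with WT was known when the members were chosen. Their values are therefore a description, and no p-value is given for them. For 8 of the 10 members the KO and WT values did not overlap. Of the 9 tested members, 6 lay wholly higher and 1 wholly lower in the KO libraries, beside 54.8% of all tested genes whose groups did not overlap (28.2% higher and 26.6% lower in KO). By edgeR at a false discovery rate of 0.05 the same numbers, 6 higher and 1 lower, were called, where 38.4% of all tested genes were called (19.3% higher and 19.2% lower). Nothing about the members is read from these counts.

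**Figure D1:**
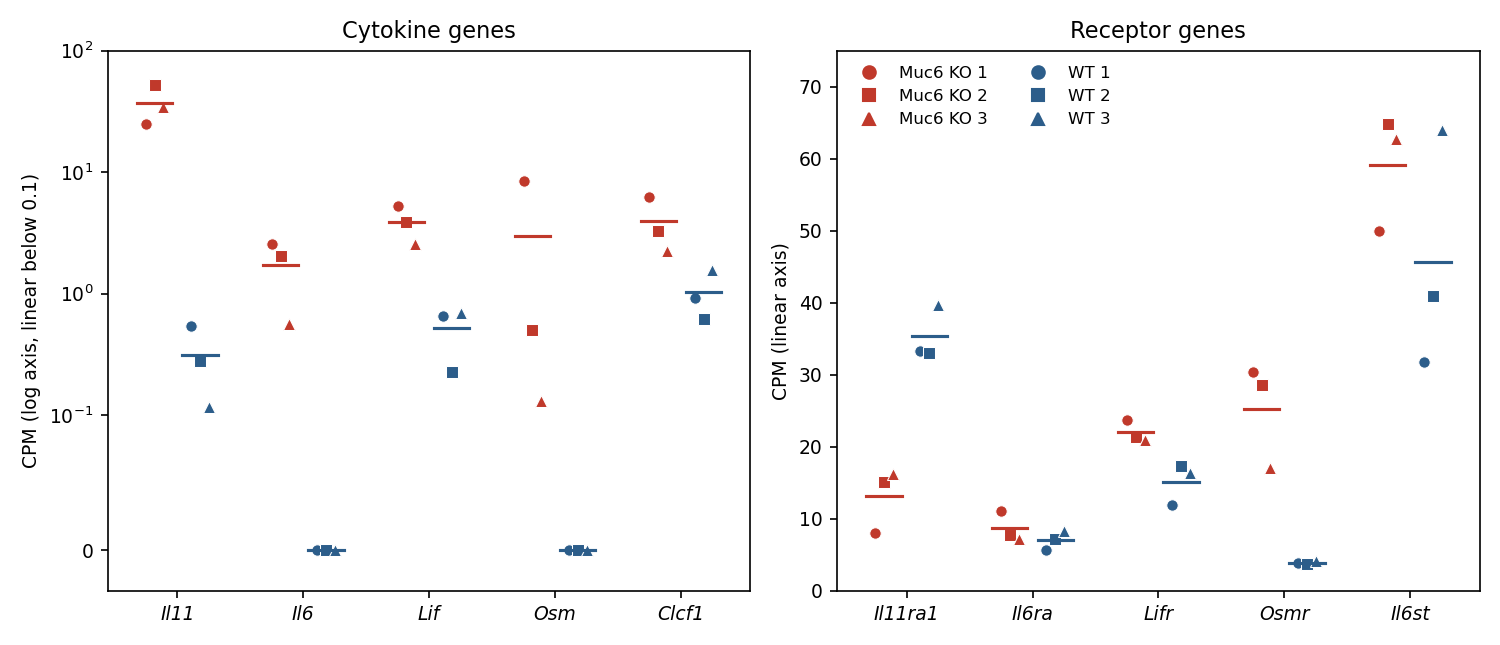
CPM of the 5 cytokine genes (left, log axis that is linear below 0.1) and the 5 receptor genes (right, linear axis), with 1 point per library, shape for the library number and a bar for the mean of 3 libraries. Il11 reached 25.1 to 52.2 CPM in KO and at most 0.543 CPM in WT libraries, while Il11ra1 is the receptor whose KO points all lie below the WT points.

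Among the cytokines, Il11 had the highest level in the KO mucosa. Il11 (chr7:4772373-4782859, minus strand, mm10) encodes interleukin 11, a cytokine of stromal and epithelial cells. It was at 25.1, 52.2 and 34.5 CPM in KO 1, KO 2 and KO 3, and at 0.543, 0.281 and 0.116 CPM in WT 1, WT 2 and WT 3. The estimated counts behind these levels were 590, 1256 and 791 in KO and 10, 5 and 2 in WT libraries. Every KO library exceeded every WT library, and KO 1 was the lowest KO library. The log2 fold change of KO over WT was 6.85 (SE 0.49). Leaving out any 1 library gave 6.46 to 7.49, and leaving out both libraries numbered 1 gave 7.70.

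Il6 (chr5:30013114-30019981) encodes interleukin 6, an inducer of the acute-phase response. It was at 2.55, 2.04 and 0.567 CPM in KO 1, KO 2 and KO 3 and had no counts in any WT library. The KO libraries held 60, 49 and 13 counts, so KO 3 was the lowest. Against a floor of 3 counts over the WT group, 0.0562 CPM, Il6 was at least 30.8-fold higher in KO, and at least 23.5-fold higher with KO 2 and KO 3 alone. Floors cover counting error in the WT libraries only, and the KO level was taken as counted.

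Lif (chr11:4257557-4272514) encodes leukemia inhibitory factor, which binds the LIF receptor and gp130. It was at 5.31, 3.86 and 2.57 CPM in the KO libraries 1 to 3 and at 0.652, 0.225 and 0.696 CPM in the WT libraries 1 to 3. The groups did not overlap, and the log2 fold change was 2.89 (SE 0.53).

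Osm (chr11:4236420-4241026), the gene before Lif on the same strand, encodes oncostatin M, a product mainly of myeloid and T cells. It was at 8.41, 0.499 and 0.131 CPM in KO 1, KO 2 and KO 3 and had no counts in WT libraries. KO 1 held 198 of its 213 counts in KO, or 93.0%, against 12 in KO 2 and 3 in KO 3. With KO levels taken as counted, Osm was at least 53.8-fold higher in KO against the floor of 3 counts over the WT group. With KO 2 and KO 3 alone it was at least 5.68-fold higher, on 15 counts. The order of the KO libraries for Osm was thus that of Il6 and Lif but with a wider spread.

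Clcf1 (chr19:4214238-4223490), which encodes a cardiotrophin-like cytokine that needs a soluble partner chain, was at 6.25, 3.28 and 2.27 CPM in KO 1 to KO 3. In WT 1 to WT 3 it was at 0.924, 0.619 and 1.57 CPM. The groups did not overlap and the log2 fold change was 1.92 (SE 0.53). This was 1.42 without KO 1 and 1.33 without both libraries numbered 1. In GENCODE M21 Clcf1 shares 311 exonic bases with another gene on its strand, AC109138.7. No row of the count table was matched to that name, and the annotation used for counting is not given. Whether reads of Clcf1 were shared is therefore not known. Il6, Lif, Osm and Clcf1 were each highest in KO 1 and lowest in KO 3, while Il11 was lowest in KO 1.

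KO 1 also stood apart in neutrophil and inflammatory genes. The 5 neutrophil markers S100a8, S100a9, Csf3r, Cxcr2 and Retnlg summed to 180 CPM in KO 1 and to 4.40 and 5.76 CPM in KO 2 and KO 3, against 0.326 to 1.28 CPM in WT libraries. Of these markers, 1 rose (Csf3r) and 4 did not pass by edgeR, while DESeq2 called 2 as higher and limma-voom 0. S100a8, which encodes a calcium-binding protein abundant in neutrophils, was at 60.0 CPM in KO 1 and at 0.706 and 0.654 CPM in KO 2 and KO 3, against 0 to 0.112 CPM in WT. Il1b, the gene of interleukin 1 beta, was at 69.8, 6.69 and 3.84 CPM in KO 1 to KO 3 and at 0, 0.675 and 0.406 CPM in WT 1 to WT 3. The part of these cells in the level of Osm was not tested.

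**Figure D2:**
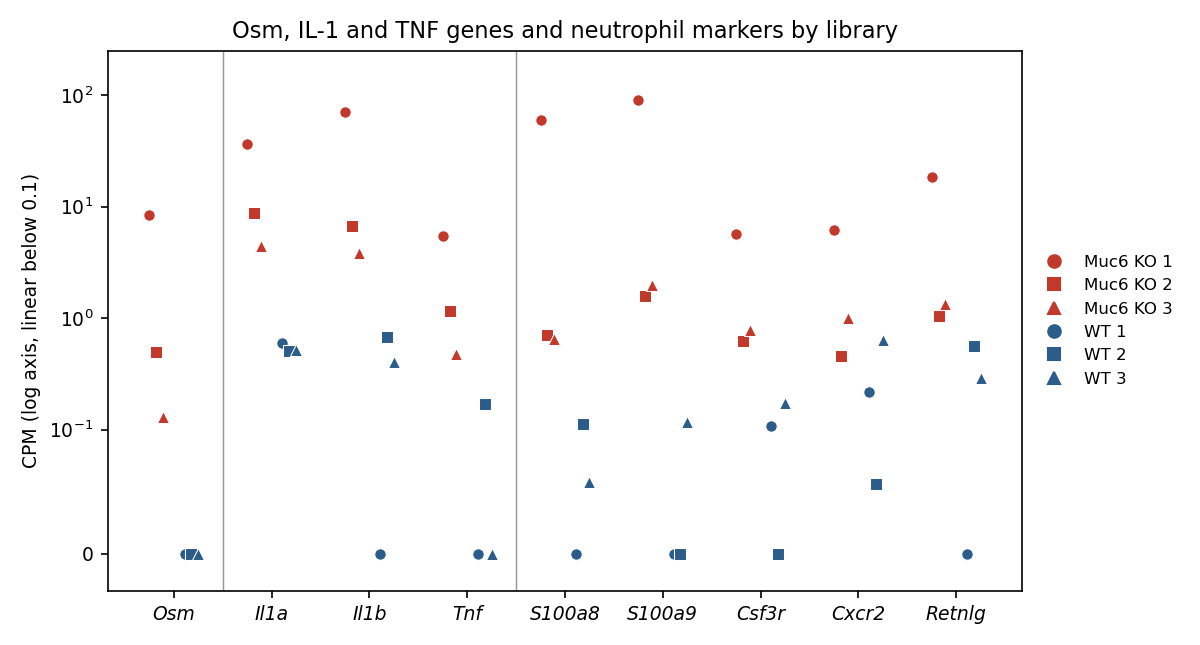
CPM (log axis that is linear below 0.1) of Osm, of the interleukin 1 and TNF genes and of 5 neutrophil markers, with 1 point per library. KO 1 is the highest library for each gene, with Osm at 8.41 CPM there and at 0.499 and 0.131 CPM in the other KO libraries.

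The receptor chains differed in direction. Il11ra1 (chr4:41699989-41769474), which encodes the chain that binds interleukin 11, was lower in every KO library. It was at 8.07, 15.1 and 16.2 CPM in KO 1, KO 2 and KO 3, against 33.3, 33.1 and 39.6 CPM in WT 1, WT 2 and WT 3. The log2 fold change was -1.43 (SE 0.26), and it was -1.01 with total-count scaling and -1.24 without both libraries numbered 1. The 6 summed fibroblast markers were at 389, 511 and 427 CPM in KO 1 to KO 3 and at 44.6, 579 and 717 CPM in WT 1 to WT 3, and their part in the level of Il11ra1 was not tested. The near-identical copies Il11ra2, Gm13305, Gm13306 and Gm20878 each stayed under 0.2 CPM in all libraries. How reads shared with these copies were assigned is not given in the sources used here, which leaves the level of Il11ra1 uncertain.

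Osmr (chr15:6813577-6874969, minus strand), which encodes the oncostatin M receptor, was higher in every KO library. It was at 30.3, 28.5 and 17.1 CPM in KO 1, KO 2 and KO 3, against 3.86, 3.71 and 4.12 CPM in WT 1, WT 2 and WT 3. The log2 fold change was 2.70 (SE 0.24), with 2.55 to 2.92 when any 1 library was left out. KO 1 and KO 2 held similar levels of Osmr, and KO 3 the lowest among the KO libraries.

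Lifr (chr15:7090614-7197489), the neighbour of Osmr, encodes the LIF receptor. It was at 23.7, 21.4 and 20.9 CPM in KO 1 to KO 3 and at 11.8, 17.3 and 16.4 CPM in WT 1 to WT 3. The groups did not overlap, but the difference was small (log2 fold change 0.54, SE 0.17), and it was 0.31 without both libraries numbered 1.

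Il6ra (chr3:89864059-89913196, minus strand), which encodes the chain that binds interleukin 6, was at 11.1, 7.77 and 7.15 CPM in KO 1 to KO 3 and at 5.70, 7.14 and 8.29 CPM in WT 1 to WT 3. The groups overlapped, and the log2 fold change was 0.30 (SE 0.25), or -0.07 without both libraries numbered 1. Il6ra shares 242 exonic bases with the antisense gene Gm42809. Whether counting used the strand is not given in the sources used here.

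Il6st (chr13:112464070-112510086) encodes gp130, the chain that all these complexes share. It was at 49.96, 64.8 and 62.8 CPM in KO 1 to KO 3 and at 31.7, 41.0 and 64.0 CPM in WT 1 to WT 3. WT 3 lay within the KO range, so the groups overlapped, and the log2 fold change was 0.38 (SE 0.26). It was 0.68 without WT 3 and 0.79 with total-count scaling.

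Levels of different genes were compared as CPM per kb of merged exons. In KO libraries the order of mean level per kb was Il11, at 17.9 ± 6.62, then Il6st, at 5.33 ± 0.725, and Il11ra1, at 2.94 ± 0.987 (SD, n = 3). Osmr (2.09), Lifr (2.04), Osm (1.33), Clcf1 (1.03), Il6ra (1.003), Lif (0.900) and Il6 (0.707) followed in mean CPM per kb. Neither Il11 and Il6st nor Il6st and Il11ra1 overlapped in their KO values, whereas Il11ra1 and each of its next neighbours, Osmr and Lifr, did, as did each later pair of neighbours in the KO order.

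In WT libraries Il11ra1 led, at 7.90 ± 0.830 CPM per kb, before Il6st at 4.11 ± 1.499, Lifr at 1.41 ± 0.269, Il6ra at 0.815 ± 0.150 and Osmr at 0.322 ± 0.0170 (SD, n = 3). The WT values of these 5 receptor genes did not overlap with one another. Clcf1 (0.272), Il11 (0.151) and Lif (0.121 CPM per kb) came next and overlapped with their neighbours, Osmr and Clcf1 included. With the length of the longest transcript in place of merged exons no member changed place. The level of Osmr depends on that choice, since its merged exons span 12113 bases and its longest transcript 5491. That of Il11ra1 does too, with 4471 and 2605 bases. With its longest transcript Il11ra1 had a mean of 5.04 CPM per kb in KO and 13.6 in WT libraries. The shares and ratios that follow use merged exons and depend on that choice as well.

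Within a library, the share of each chain in the summed level per kb of the 5 receptor genes does not depend on scaling. Il11ra1 made up 14.7%, 23.4% and 27.0% of it in KO 1 to KO 3, against 60.1%, 53.5% and 50.8% in WT 1 to WT 3. Osmr made up 20.4%, 16.3% and 10.5% in KO 1 to KO 3, against 2.57%, 2.22% and 1.95% in WT 1 to WT 3. Il6st made up 39.7% ± 2.79 in KO and 27.6% ± 5.05 in WT, Lifr 15.3% ± 2.25 in KO and 9.72% ± 1.62 in WT, and Il6ra 7.60% ± 2.45 in KO and 5.60% ± 0.336 in WT (SD, n = 3 each). The groups did not overlap for Il11ra1, Osmr, Lifr or Il6st. For Il6ra they did not overlap either, with 6.15% the lowest KO and 5.98% the highest WT share. The shares of a library add up to its whole, so a lower share of Il11ra1 raises the others. These separations are therefore not independent of one another, and in CPM the groups overlapped for Il6st and Il6ra.

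Relative to gp130, Il11ra1 stood at 0.401, 0.578 and 0.641 per unit of Il6st in KO 1 to KO 3, against 2.61, 2.002 and 1.54 in WT 1 to WT 3, as ratios of levels per kb. Osmr stood at 0.556, 0.403 and 0.249 per unit of Il6st in KO 1 to KO 3, against 0.111, 0.0830 and 0.0589 in WT 1 to WT 3. The ratios of Il11ra1 and Osmr thus kept the groups apart, in opposite directions. For Il6ra per unit of Il6st the groups overlapped, at 0.146 to 0.285 in KO and 0.166 to 0.231 in WT libraries. For Lifr they overlapped as well, at 0.340 to 0.490 in KO and 0.263 to 0.434 in WT libraries. Il11 made up 61.3%, 89.9% and 91.8% of the summed cytokine level per kb in KO 1 to KO 3, against 39.9%, 38.7% and 8.89% in WT 1 to WT 3, where the sums rest on few counts.

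**Figure D3:**
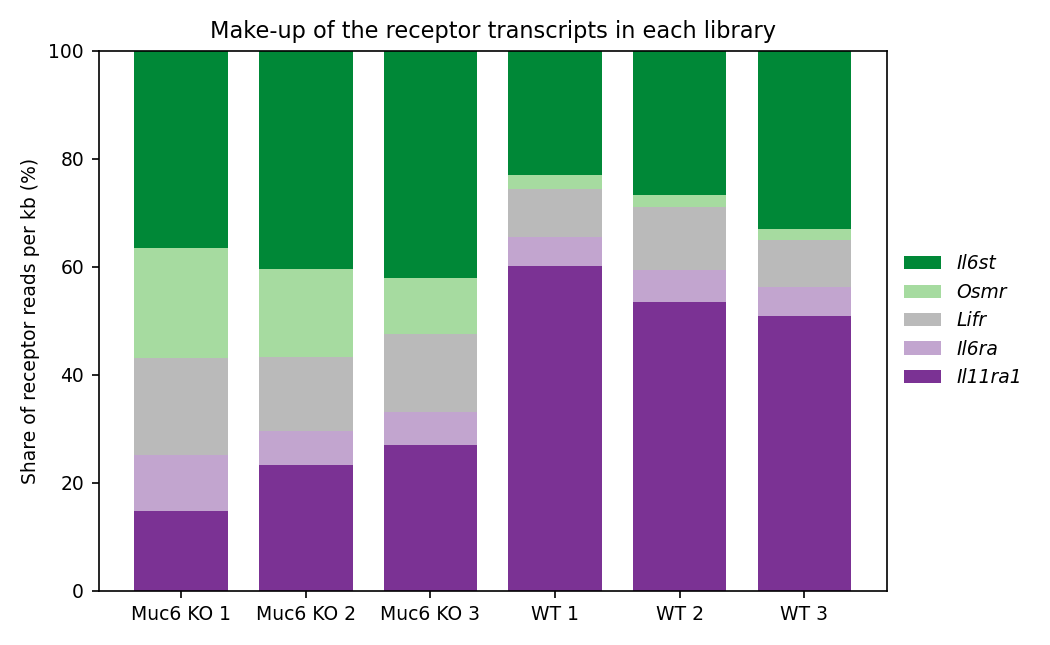
Share of each receptor gene in the summed CPM per kb of the 5 receptor genes, as 1 stacked bar per library (%). The lowest segment, Il11ra1, takes 14.7% to 27.0% in KO and 50.8% to 60.1% in WT libraries, and the Osmr segment takes 10.5% to 20.4% in KO and 1.95% to 2.57% in WT libraries.

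Markers of several other cell types, but not of all, differed between the genotypes as well. The part of other cell types in the members' levels was not tested. The 6 fibroblast markers summed to 389 to 511 CPM in KO and 44.6 to 717 CPM in WT libraries, and none of them passed edgeR's test (0 at an unadjusted p under 0.05, and 0 called by DESeq2 and limma-voom). The 6 macrophage markers summed to 87.6 to 111 CPM in KO and 10.2 to 79.5 CPM in WT libraries, and edgeR called none of them (2 higher at an unadjusted p under 0.05), while DESeq2 and limma-voom called 2 as higher. The 5 endothelial markers summed to 44.1 to 65.5 CPM in KO and 11.2 to 24.0 CPM in WT libraries, and 2 rose. The 5 mast cell markers summed to 316 to 635 CPM in KO and 15.6 to 29.6 CPM in WT libraries, and 2 rose. The 6 T cell markers summed to 2.41 to 3.58 CPM in KO and 0.281 to 0.696 CPM in WT libraries, with 1 tested and higher, and the 5 B and plasma cell markers to 41.4 to 94.9 CPM in KO and 0.754 to 1.03 CPM in WT libraries, with both tested ones higher. Epithelial markers summed to 9118 to 9580 CPM in KO and 9979 to 12024 CPM in WT libraries, with 2 of 5 higher and 2 lower. The gastric body markers summed to 133 to 1108 CPM in KO and 4156 to 5625 CPM in WT libraries. All 4 found fell by edgeR and DESeq2, but limma-voom called 1 as lower. The 6 intestinal markers summed to 380, 590 and 868 CPM in KO 1 to KO 3, below the 900 to 957 CPM of the WT libraries. Of the 4 tested intestinal markers edgeR called 2 as higher and 1 as lower. DESeq2 called 3 of these as higher and 1 as lower, and limma-voom 1 as higher and 1 as lower. The 5 smooth muscle markers did not pass with edgeR, DESeq2 or limma-voom, and 0 had an unadjusted edgeR p under 0.05.

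The intracellular part of the pathway was described from lists of its other genes. The background was 19.3% of tested genes higher and 19.2% lower, with a median log2 fold change of 0.02. These lists and those below were chosen with earlier results of these data known. Their counts and medians are therefore descriptions printed beside that background. Of 16 tested JAK and STAT transducer genes, 6 rose, 3 fell and 7 did not pass, with a median of 0.19. Stat3, the main transcription factor downstream of gp130, was at 98.3, 93.0 and 96.8 CPM in KO 1 to KO 3, against 66.3, 61.7 and 56.8 CPM in WT 1 to WT 3, and rose by 0.64 (SE 0.10, edgeR adjusted p = 0.00267). Jak3, the kinase of cytokine receptors with the common gamma chain, rose by 1.69 (SE 0.23, edgeR adjusted p = 0.00169). Yes1, a Src family kinase, fell by 1.10 on the log2 scale (SE 0.15, edgeR adjusted p = 0.00161).

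The kinases best known at gp130 are JAK1, JAK2 and TYK2, and their genes are named here after their values were seen. Jak2 was at 59.2, 68.5 and 75.1 CPM in KO 1 to KO 3, against 99.2, 116 and 125 CPM in WT 1 to WT 3, and fell by 0.75 on the log2 scale (SE 0.13, edgeR adjusted p = 0.00476, and 0.0778 with total-count scaling). Jak1 had a log2 fold change of -0.01 and did not pass, but with total-count scaling it was higher, at 0.41. Tyk2 had one of 0.40 and did not pass (edgeR adjusted p = 0.0908, and 0.00494 with total-count scaling). With total-count scaling 10 transducer genes rose and 1 fell. That scaling moved the median of all tested genes by 0.42 and gave 84.0% of called genes higher, against 50.1%, and directions here are relative to the TMM-scaled median.

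Of 15 tested genes that restrain JAK and STAT signalling, 7 rose, none fell and 8 did not pass by edgeR, with a median of 0.55. At an unadjusted p under 0.05 edgeR had 2 lower, and DESeq2 and limma-voom called 0 as lower. Socs1, a suppressor of cytokine signalling, was at 1.06, 1.45 and 1.40 CPM in KO 1 to KO 3 and at 0.109, 0.169 and 0.116 CPM in WT 1 to WT 3, and rose by 3.26 (SE 0.52, edgeR adjusted p = 0.00313). Ptprt, a receptor phosphatase, was at 34.4, 22.2 and 16.9 CPM in KO 1 to KO 3 and at 2.17, 3.60 and 2.67 CPM in WT 1 to WT 3, and rose by 3.12 (SE 0.32, edgeR adjusted p = 6.95e-04). Socs6, of the same family as Socs1, and Ptpn1, a tyrosine phosphatase, rose by 0.70 each (SE 0.12 and 0.15). Socs3, the feedback inhibitor that binds gp130 itself, is named after its values were seen. It was at 63.3, 86.0 and 61.5 CPM in KO 1 to KO 3 and at 59.4, 49.5 and 38.1 CPM in WT 1 to WT 3. Its log2 fold change was 0.52 (SE 0.20) and did not pass (edgeR adjusted p = 0.0720), while it passed without WT 1 (0.0408), with DESeq2 (0.0454), without both libraries numbered 1 (0.0302) and with total-count scaling (0.00720).

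Soluble interleukin 6 receptor is shed from cells by ADAM proteases, and the iRhom proteins help one of these, ADAM17, to mature. Of 10 tested genes of shedding and trafficking, 5 rose, 1 fell and 4 did not pass, with a median of 0.37 (8 higher and 0 lower with total-count scaling). Adam17 and Adam10, the proteases themselves, are named after their values were seen and did not pass, at log2 fold changes of -0.10 and -0.01. Rhbdf1 and Rhbdf2, the iRhom genes, rose by 1.32 (SE 0.24) and 1.26 (SE 0.35). Cd81, a tetraspanin, rose by 1.36 (SE 0.15), and Rhbdl2, a rhomboid protease gene, fell by 0.46 on the log2 scale. The call of Rhbdf2 was lost when KO 1, KO 2, KO 3, WT 2 or WT 3 was left out (edgeR adjusted p 0.0565 to 0.0851), and that of Rhbdl2 without KO 3 (0.0529), without WT 2 (0.0522) and with total-count scaling (0.756). In this list 2 genes passed without WT 2 and 3 without KO 1 or WT 3.

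Genes known as STAT3 targets rose in 15 of 20 tested cases, none fell and 5 did not pass by edgeR, with a median of 1.48. None was lower at an unadjusted p under 0.05, or called as lower by DESeq2 or limma-voom, and the same held for the inducers of these cytokines. Lrg1, a secreted glycoprotein gene, was at 68.2, 56.1 and 61.4 CPM in KO 1 to KO 3 and at 1.03, 1.24 and 0.638 CPM in WT 1 to WT 3, and rose by 5.98 (SE 0.23, edgeR adjusted p = 4.73e-05). The antimicrobial lectin genes Reg3g and Reg3b rose by 6.72 (SE 0.37) and 9.20 (SE 0.62), and Bcl3, a partner of NF-kB, by 2.04 (SE 0.17). Many of these genes are also known to answer to other signals.

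Of 12 tested genes that encode known inducers of these cytokines, 8 rose, none fell and 4 did not pass by edgeR, with a median of 1.21. Among those that did not pass were the AP-1 genes Fosl1, Fos and Jun, named after their values were seen. Their log2 fold changes were 1.56 (SE 0.63), 0.55 (SE 0.43) and 0.29 (SE 0.22), with edgeR adjusted p of 0.0917, 0.362 and 0.324. A part of AP-1 in the members' levels was not tested. Tgfb1, which encodes transforming growth factor beta 1, an inducer of interleukin 11 in fibroblasts, was at 29.3, 20.4 and 15.6 CPM in KO 1 to KO 3 and at 2.93, 3.15 and 4.23 CPM in WT 1 to WT 3. It rose by 2.66 (SE 0.28, edgeR adjusted p = 6.99e-04). Il1a, the gene of interleukin 1 alpha, was at 36.1, 8.73 and 4.41 CPM in KO 1 to KO 3 and at 0.598, 0.506 and 0.522 CPM in WT 1 to WT 3, and rose by 4.90 (SE 0.94, edgeR adjusted p = 0.0106). It was highest in KO 1, as Osm was, and its call was lost without any 1 WT library (0.0508 to 0.0560) and with limma-voom (0.199). Nfkb1, an NF-kB subunit gene, and Hif1a, a transcription factor gene of the hypoxia response, rose by 0.64 (SE 0.10) and 0.87 (SE 0.16). In this list 3 genes passed without WT 2, 4 without WT 3 and 5 without KO 2.

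The remaining family members were scarce. Of 11 listed cytokines and receptors outside the 10 members, 4 were tested, and of these 1 fell, none rose and 3 did not pass by edgeR, with a median of -0.34. The count higher was also 0 at an unadjusted p under 0.05 and by DESeq2 and limma-voom. Il31ra, which encodes a receptor chain that pairs with the oncostatin M receptor, was at 0.170, 0.0416 and 0.218 CPM in KO 1 to KO 3 and at 0.706, 0.619 and 0.696 CPM in WT 1 to WT 3, and fell by 2.19 on the log2 scale (SE 0.65, edgeR adjusted p = 0.0326). Its call was lost when any 1 of the 6 libraries was left out (0.0586 to 0.105), with DESeq2 (0.0652), with total-count scaling (0.0540) and with no low-count filter (0.0697). Il31, the gene of its ligand, had no counts.

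**Figure D4:**
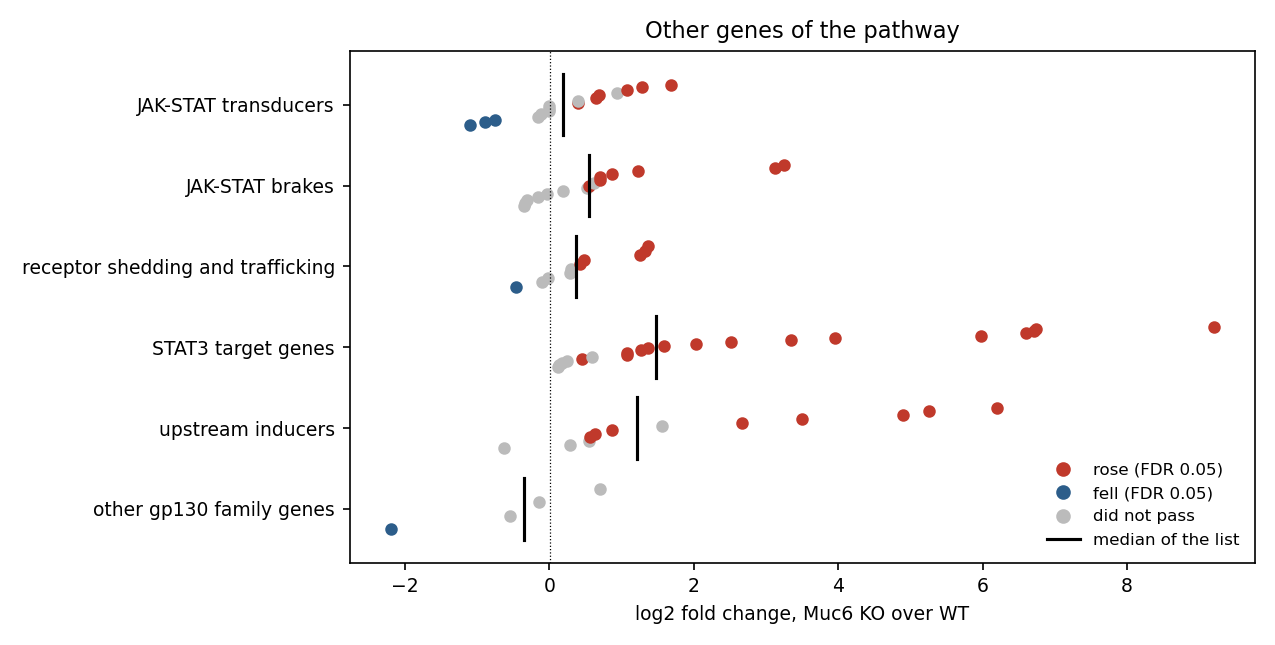
Log2 fold change of KO over WT for each tested gene of 6 lists of the pathway, coloured by whether it rose, fell or did not pass at a false discovery rate of 0.05, with a line at each list's median. The STAT3 target list has 15 genes that rose and none that fell, and the transducer list has 6 that rose and 3 that fell.

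By a rule set on level alone, Il11 and Il6st, the cytokine and the receptor with the highest mean CPM, were compared with 12448 other genes over the 6 libraries. Likeness was the root mean square difference between centred profiles of log2(CPM + 0.5). Nearest to Il11 were Ddx3y (0.371), Asz1 (0.411) and Lrg1 (0.422), where Ddx3y is Y-linked and so follows the sex of the libraries. Nearest to Il6st were Calcoco1 (0.0787), Nab2 (0.0871) and Dnajc18 (0.107). These distances are descriptions over 6 libraries in which genotype, sex and TMM-scaled library size differ together.

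**Figure D5:**
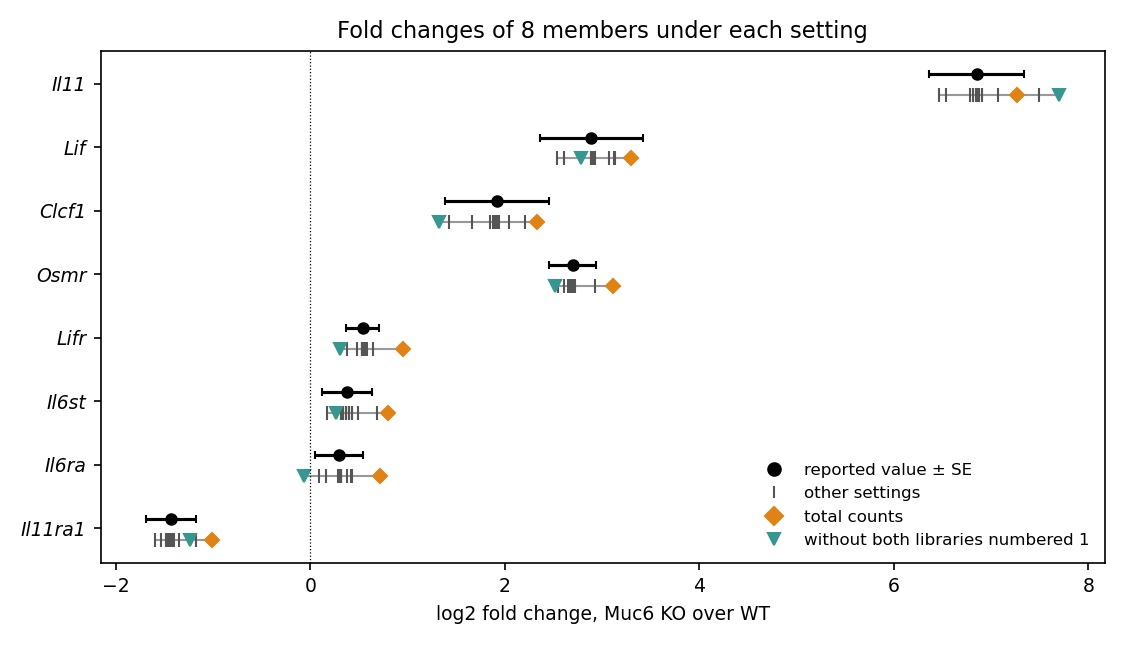
Log2 fold change of KO over WT for 8 members, as the reported value with its SE (black) and, below it, the values under 15 other settings, with total-count scaling and the fit without both libraries numbered 1 marked. Osm was not tested and Il6, with no counts in WT, is left out. Il11ra1 lies below 0 and Il11, Lif, Clcf1, Osmr, Lifr and Il6st lie above 0 in every setting shown, and Il6ra crosses 0 to -0.07 without both libraries numbered 1.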

How the data were processed

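RNA of antral gastric mucosa was measured in 3 libraries of each genotype. Estimated counts of genes were deposited by the authors as 1 table, and were recognised from values of which 28.8% to 34.2% above 0 are not whole. Per the submitters' processing notes the build was mm10. Neither the aligner nor the counting program or annotation is given in the sources used here. Counts were rounded and 34652 of 34866 identifiers were matched to GENCODE M21, also on mm10. Genes were filtered with filterByExpr, scaled with TMM factors and tested with edgeR 4.0.16 (robust quasi-likelihood, Benjamini-Hochberg over 14017 genes, false discovery rate 0.05) in R 4.3.3, a fit tested on simulated data. The SE of a fold change was derived from it and the quasi-likelihood F. Alternatives used DESeq2 1.42.0, limma-voom (limma 3.58.1), other scalings and filters, a replicate block and left-out libraries.

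The members and lists were chosen with earlier results of these data known. Named genes are the 10 members, up to 4 genes with the smallest adjusted p of each list among those passing, and the 3 nearest profiles; others are marked, and 1 gene that the rule names is not reported here. Chi-square per degree of freedom between libraries of 1 genotype was 16.0 to 79.6, so none repeats another. The p-values measure the spread between these libraries, which may be technical.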

Additional observations from a re-analysis of the deposited data

How the results depend on the processing

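Of 582 comparisons of a named gene's fold change between the reported and another setting, 529 stayed on the same side of the threshold, 44 lost their call and 8 gained one in the same direction, and 1, Jak1 at 0.41 with total counts, changed sign and was called. Among the 529, 5 changed sign without being called in either setting, 4 of Jak1 and 1 of Il6ra. Of all tested genes 5386 were called, 3342 to 6009 when 1 library was left out (3342 without WT 2 and 3531 without KO 2) and 2665 at a false discovery rate of 0.01. The members called numbered 7, 5 to 7 when 1 library was left out, 5 without both libraries numbered 1 and 9 with total counts. With total counts 6821 of all 14017 tested genes were called, 5730 of them higher in KO. Nothing about the members is read from these counts either. Leaving out 1 library gave 2 to 6 shedding genes, 3 to 6 inducers and 0 other family genes. Replicate numbers are shared between genotypes, but same-numbered libraries deviated together only in part (correlations of 0.255, 0.0848 and 0.178), so the numbers were not taken as pairs. With the replicate number as a block 5069 genes and 6 members were called. At a false discovery rate of 0.01 the restraining genes numbered 3, the shedding genes 2, the inducers 3 and the other family genes 0, and at 0.1 the restraining genes numbered 11. The other family genes numbered 0 with total counts, with no low-count filter, with at least 1 CPM in 3 libraries and with DESeq2. Depth limits Il6, Il11, Osm, Lif and Clcf1, with few counts in WT libraries (10, 5 and 2 for Il11 in WT 1 to WT 3). The causes were not tested.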
